A study of Mus musculus with 12 samples.

Results

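The genes described here are 42 that encode the machinery of DNA replication and S phase. They were taken from a list of 42 gene names, all of which were measured, among 19938 genes on the arrays. Each gene was represented by the probe set with the highest mean over all arrays. The list covers origin licensing, the replicative helicase, the polymerases, the sliding clamp, strand joining, deoxynucleotide supply, the E cyclins and chromatin assembly behind the fork.

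The study asked how estradiol (17β-estradiol, E2) given to mated female mice before implantation affects gene expression in the oviduct and uterus. Mice received a daily subcutaneous injection of 10 µg/kg E2 in 100 µl sesame oil, or of the oil alone (0 µg/kg), on days 0.5, 1.5 and 2.5 after mating, and tissues were taken on day 3.5. Flushed oviducts and uterine horns gave 4 groups of 3 Affymetrix arrays each: E2 uterus, oil uterus, E2 oviduct and oil oviduct. The labels call the 3 arrays of a group biological replicates. The sources used here give no strain, genotype or age, so the groups are described only by tissue and injection. All groups shared mating, the oil vehicle and the day of dissection. Values below are log2 of the deposited intensities, and changes are differences of these log2 values. A value of -1 is a level 2-fold lower. Whole pieces of tissue were measured, so fewer cells of a type and less RNA per cell cannot be told apart in any result here.

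Before DNA is copied, the origin recognition complex, CDC6 and CDT1 load MCM rings onto origins, and CDC45 and GINS then turn each ring into an active helicase. DNA polymerase alpha with primase starts each strand, polymerases epsilon and delta extend the leading and lagging strands, and the PCNA clamp holds them on DNA. Most of these genes are transcribed at the transition from G1 to S phase under E2F factors. In the mouse uterus, estradiol is known as a driver of epithelial proliferation, and progesterone with estradiol is known to move proliferation to the stroma before implantation.

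The tissue labels matched tissue markers. All 8 genes of motile cilia were lower in uterus than in oviduct under either injection (median log2 difference -2.35 in E2 mice and -2.79 in oil mice), and Hoxa11, a uterine patterning gene, was higher in uterus (3.06 (SE 0.10) in E2 mice and 3.92 (SE 0.10) in oil mice). The oil arrays numbered 3 stood apart. In the oil uterus array 177 genes, and in the oil oviduct array 302 genes, differed by more than 1 on the log2 scale from the average of the other 2 arrays of the group, against 8 to 62 genes on the other 10 arrays. On the oil uterus array 37 of the 42 replication genes lay below that average (median -0.25), and on the oil oviduct array 36 lay above it (median 0.12). The oil oviduct array also had corpus luteum and ovary markers a median of 3.17 above its group. Smooth muscle markers were above their group on the oil uterus array for 9 of 9 (median 0.54), and ciliated cell markers on the oil oviduct array for 8 of 8 (median 0.81). The part of these shifts in the replication values was not tested. The main counts below are therefore also given without both of these arrays. The files used here hold no detection call, so a low level cannot be told from background. Y-linked genes, which female tissue lacks, read up to 7.5 on the log2 scale, or 4.4 without Sry. All 42 members were above 4.4 on every array. The E2 uterus mean was below 7.5 for 34 members, and all 4 group means were for 16.

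In the uterus, every one of the 42 replication genes fell under E2 (limma, Benjamini-Hochberg adjusted p under 0.05 over all 19938 genes), and none rose. The background was 14.3% of all genes lower and 12.4% higher. The median log2 change of the members was -0.81, against 0 over all genes, and single genes ranged from -1.81 for Pole to -0.39 for Rfc2. At least 2-fold falls were found for 14 members, where 1.41% of all genes fell as far. For all 42 members the highest E2 uterus array lay below the lowest oil uterus array, while 21.5% of all genes showed that separation. The gap between the groups was narrowest for Rfc2, at 0.12, followed by Rrm2 at 0.17 and Gins2 at 0.19. Again 42 members fell when both oil arrays numbered 3 were left out, with a median of -0.90. In that fit 28% of all genes were called in either direction.

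**Figure D1:**
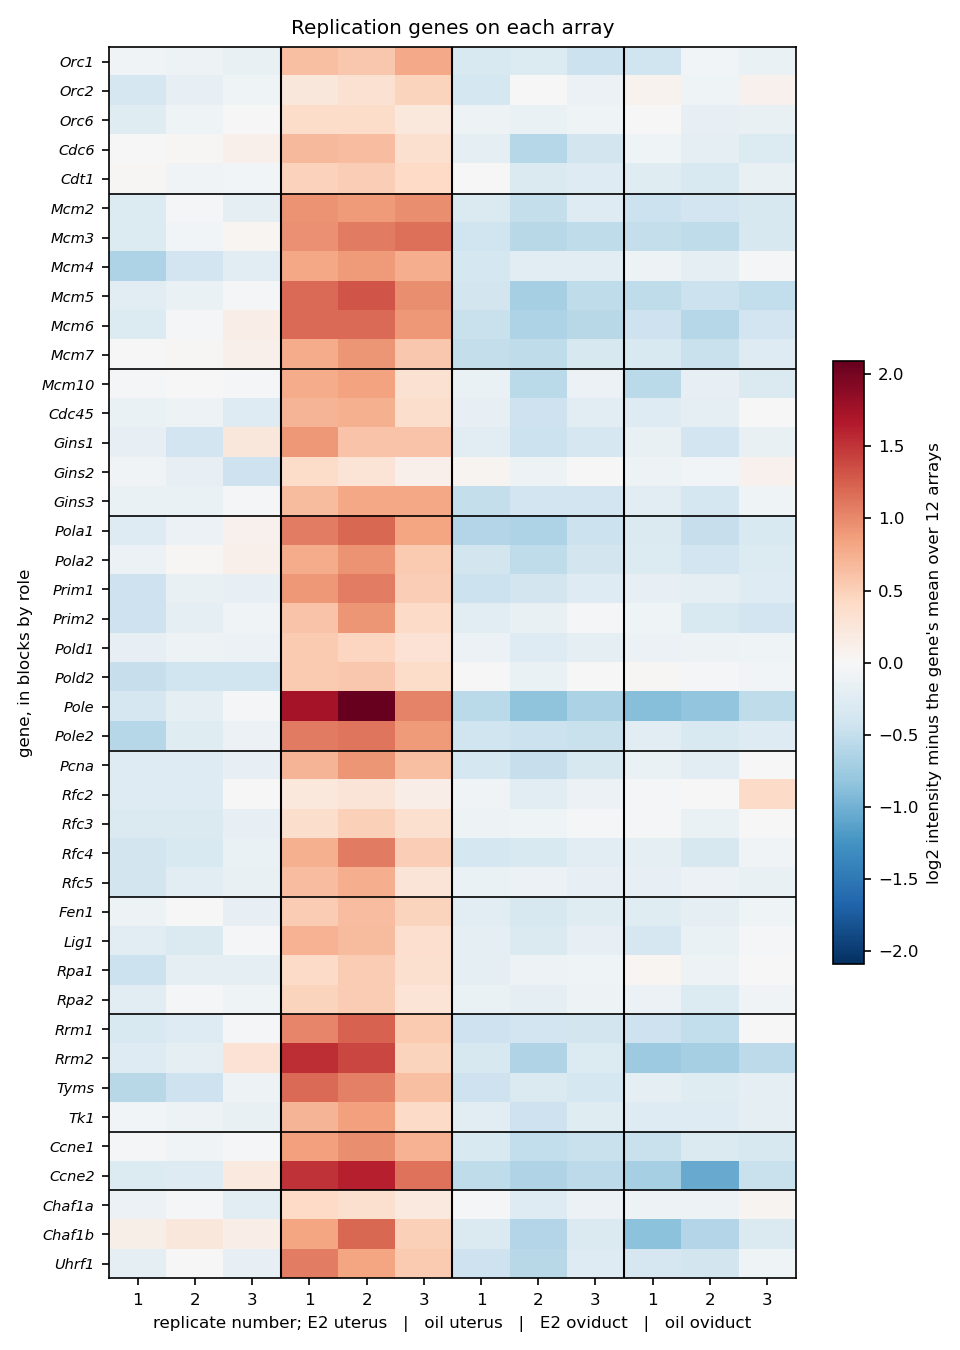
Level of each of the 42 replication genes on each of the 12 arrays, as log2 intensity minus the gene's mean over the 12 arrays, with genes in rows by role and arrays in columns by group. The 3 oil uterus columns are high for nearly every gene, array 3 less so than arrays 1 and 2, and the E2 uterus columns lie near the oviduct columns.

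The mean centred level over the 42 genes (each gene's own mean over the 12 arrays subtracted) summarised this pattern. It was -0.24, -0.15 and -0.07 in E2 uteri, against 0.78, 0.85 and 0.55 in oil uteri. In oviducts it was -0.29, -0.39 and -0.28 with E2, against -0.28, -0.31 and -0.18 with oil. The oil uteri stood above the other 9 arrays, and the E2 uteri lay close to the oviducts.

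**Figure D2:**
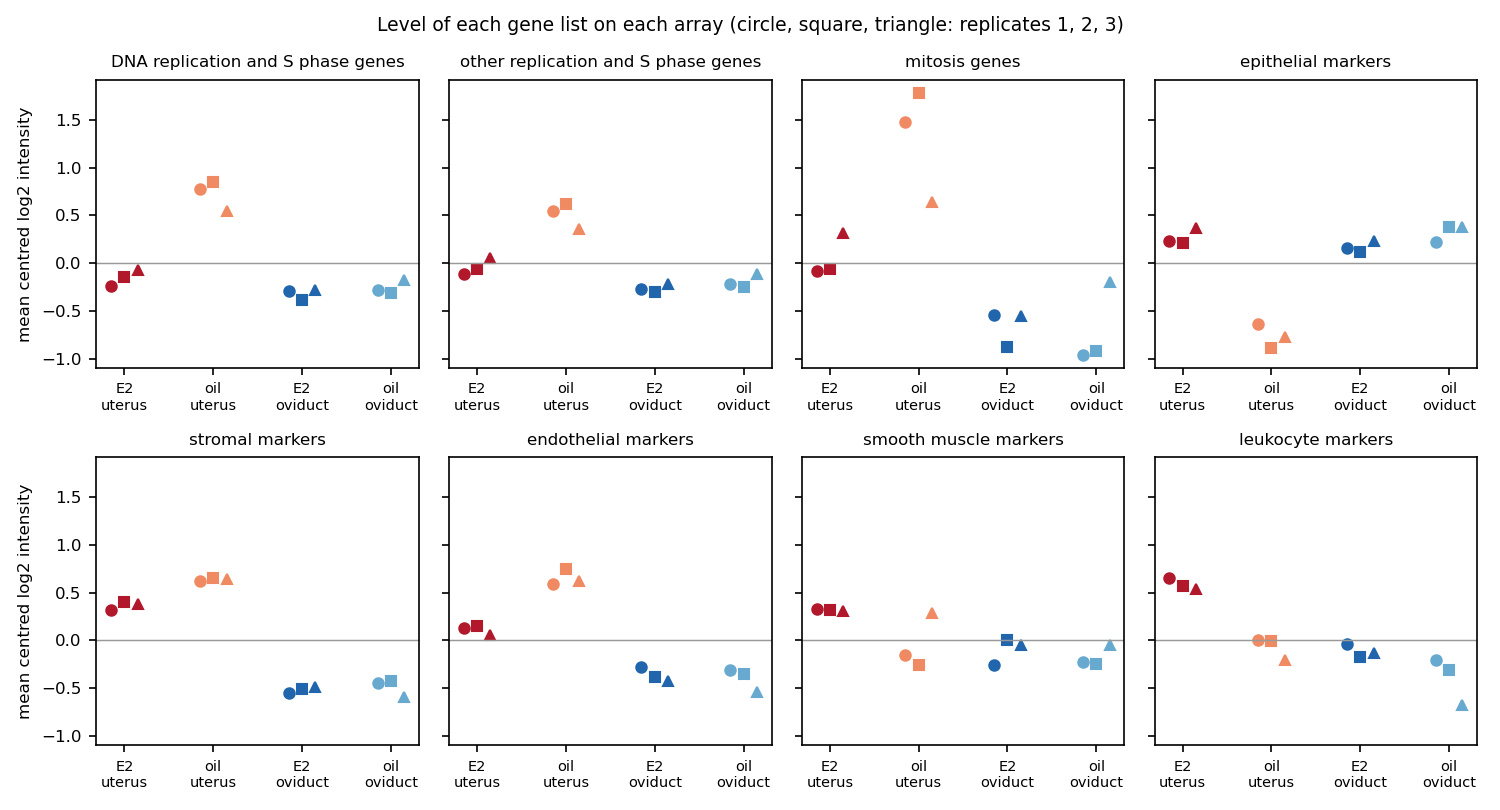
Mean centred log2 intensity of each gene list on each array, with groups along the horizontal axis and 1 symbol per replicate number. The replication list reaches 0.55 to 0.85 in oil uteri and lies at or below -0.07 on all other arrays.

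The 5 licensing genes had a median change of -0.51 in the uterus, the smallest of the 9 roles. Orc1, the large ATPase subunit of the origin recognition complex, had log2 levels of 4.90, 4.87 and 4.82 in E2 uteri, against 5.61, 5.54 and 5.77 in oil uteri, and fell by 0.78 (SE 0.10). Orc2, a core subunit of that complex, had 7.40, 7.57 and 7.66 in E2 uteri, against 7.98, 8.07 and 8.21 in oil uteri, and fell by 0.54 (SE 0.11). Orc6, its smallest subunit, had 7.51, 7.67 and 7.76 in E2 uteri, against 8.15, 8.15 and 7.98 in oil uteri, and fell by 0.45 (SE 0.08). The groups did not overlap for any of these subunits, and the falls were all under 2-fold. Cdt1, which brings MCM rings to origins, had 6.77, 6.68 and 6.69 in E2 uteri, against 7.24, 7.27 and 7.17 in oil uteri, and fell by 0.51 (SE 0.08). Cdc6, its partner in loading, had 5.42, 5.45 and 5.52 in E2 uteri, against 6.09, 6.06 and 5.75 in oil uteri, and fell by 0.50 (SE 0.11), with oil array 3 nearest to the E2 arrays. Adjusted p-values in this role ran from 0.000142 to 0.00602.

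The 6 subunits of the MCM ring, the motor of the replicative helicase, fell by more, with a median of -1.16, and 5 of the 6 were at least 2-fold lower. Mcm5 had 6.86, 6.97 and 7.08 in E2 uteri, against 8.29, 8.42 and 8.08 in oil uteri, and fell by 1.29 (SE 0.10). Mcm4 had 6.89, 7.14 and 7.31 in E2 uteri, against 8.35, 8.42 and 8.29 in oil uteri, and fell by 1.24 (SE 0.10). Mcm3 had 6.11, 6.34 and 6.43 in E2 uteri, against 7.35, 7.48 and 7.55 in oil uteri, and fell by 1.17 (SE 0.09). In these genes the lowest oil uterus array was over 0.9 above the highest E2 uterus array. Mcm6 had 7.18, 7.45 and 7.60 in E2 uteri, against 8.65, 8.66 and 8.38 in oil uteri, and fell by 1.16 (SE 0.11). Mcm2 had 7.37, 7.61 and 7.47 in E2 uteri, against 8.59, 8.55 and 8.62 in oil uteri, and fell by 1.10 (SE 0.08). Mcm7 had the smallest change of the ring, with 7.89, 7.92 and 8.0 in E2 uteri, against 8.67, 8.82 and 8.46 in oil uteri, and fell by 0.71 (SE 0.10). Adjusted p-values ran from 2.73e-06 to 0.000219.

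The 5 genes of helicase activation had a median of -0.78. Gins3, 1 of the GINS subunits that join the MCM ring, had 6.43, 6.44 and 6.54 in E2 uteri, against 7.24, 7.39 and 7.39 in oil uteri, and fell by 0.87 (SE 0.08). Gins1, another GINS subunit, had 5.09, 4.87 and 5.5 in E2 uteri, against 6.17, 5.87 and 5.86 in oil uteri, and fell by 0.81 (SE 0.15), with E2 array 3 the highest of its group. Cdc45, the further component of the active helicase, had 6.09, 6.13 and 5.96 in E2 uteri, against 6.95, 6.98 and 6.60 in oil uteri, and fell by 0.78 (SE 0.11). Oil array 3 was the lowest oil array for Cdc45 and was so again for Mcm10, a factor needed to start unwinding, which had 5.90, 5.96 and 5.90 in E2 uteri, against 6.73, 6.79 and 6.27 in oil uteri, and fell by 0.68 (SE 0.15). Gins2 had 6.95, 6.86 and 6.60 in E2 uteri, against 7.41, 7.31 and 7.14 in oil uteri, and fell by 0.48 (SE 0.10), with E2 array 1 near the oil range. Adjusted p-values ran from 1.53e-05 to 0.00643.

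Among the 8 primase and polymerase genes the median was -1.01. Pole, the catalytic subunit of the leading strand polymerase epsilon, had the largest fall of the 42, with 5.93, 6.09 and 6.26 in E2 uteri, against 8.02, 8.37 and 7.31 in oil uteri, and fell by 1.81 (SE 0.21), adjusted p = 8.68e-05. Its oil arrays were spread over more than 1 log2 unit, with array 3 lowest, and without both oil arrays numbered 3 the change was -2.10. Pole2, an accessory subunit of polymerase epsilon, had 5.96, 6.30 and 6.43 in E2 uteri, against 7.64, 7.68 and 7.44 in oil uteri, and fell by 1.36 (SE 0.11). Pola1, the catalytic subunit of polymerase alpha, had 6.90, 7.05 and 7.25 in E2 uteri, against 8.23, 8.37 and 7.99 in oil uteri, and fell by 1.13 (SE 0.11). Its accessory subunit Pola2 had 7.05, 7.19 and 7.28 in E2 uteri, against 7.95, 8.11 and 7.71 in oil uteri, and fell by 0.75 (SE 0.10). Catalytic genes thus led their accessory partners in polymerases alpha and epsilon, although these differences in size between genes were not tested. In polymerase delta, which extends the lagging strand, the order was the other way round. The accessory gene Pold2 had 7.77, 7.84 and 7.85 in E2 uteri, against 8.81, 8.82 and 8.65 in oil uteri, and fell by 0.94 (SE 0.07). The catalytic gene Pold1 had 7.15, 7.22 and 7.20 in E2 uteri, against 7.87, 7.78 and 7.62 in oil uteri, and fell by 0.57 (SE 0.07). The primase genes also separated by group. Prim1, the catalytic primase subunit, had 6.68, 6.96 and 6.95 in E2 uteri, against 8.02, 8.19 and 7.63 in oil uteri, and fell by 1.08 (SE 0.13). Prim2, the regulatory primase subunit, had 6.91, 7.15 and 7.28 in E2 uteri, against 7.94, 8.27 and 7.75 in oil uteri, and fell by 0.87 (SE 0.14). Adjusted p-values of the role ran from 2.59e-06 to 0.000608.

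The clamp and its loader had a median of -0.81. Pcna, the sliding clamp, had 9.16, 9.17 and 9.27 in E2 uteri, against 10.15, 10.35 and 10.07 in oil uteri, and fell by 0.99 (SE 0.09). A second probe set annotated to Pcna gave the same group means, 9.20 in E2 uteri and 10.19 in oil uteri. The annotation also lists the pseudogenes Pcna-ps1 and Pcna-ps2, so the signal cannot be assigned to the parent gene with certainty. Rfc4, a small subunit of the loader that opens the clamp, had 8.16, 8.23 and 8.40 in E2 uteri, against 9.28, 9.63 and 9.06 in oil uteri, and fell by 1.06 (SE 0.13). Rfc5 had 8.56, 8.72 and 8.79 in E2 uteri, against 9.59, 9.71 and 9.22 in oil uteri, and fell by 0.81 (SE 0.11). Rfc3 had 7.18, 7.19 and 7.32 in E2 uteri, against 7.85, 7.98 and 7.82 in oil uteri, and fell by 0.66 (SE 0.07). Those 3 loader subunits kept clear gaps between the groups. Rfc2 had 6.78, 6.78 and 7.07 in E2 uteri, against 7.27, 7.32 and 7.19 in oil uteri, and fell by 0.39 (SE 0.12), adjusted p = 0.0286. The Rfc2 call ended when E2 uterus array 1 or 2, or oil uterus array 1 or 2, was left out, with changes between -0.48 and -0.34 over all arrays left out.

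The 4 genes of strand protection and joining had a median of -0.66. Lig1, the ligase that seals lagging strand fragments, had 6.90, 6.81 and 7.10 in E2 uteri, against 7.85, 7.78 and 7.47 in oil uteri, and fell by 0.77 (SE 0.12). Fen1, the nuclease that trims their flaps, had 6.21, 6.32 and 6.13 in E2 uteri, against 6.84, 6.95 and 6.77 in oil uteri, and fell by 0.63 (SE 0.07). Rpa1, the large subunit of the factor that coats single-stranded DNA, had 7.16, 7.40 and 7.42 in E2 uteri, against 8.01, 8.14 and 7.94 in oil uteri, and fell by 0.70 (SE 0.08). Its partner Rpa2 had 6.87, 7.06 and 7.01 in E2 uteri, against 7.57, 7.64 and 7.38 in oil uteri, and fell by 0.55 (SE 0.09). All 4 falls were under 2-fold, with adjusted p-values from 8.63e-05 to 0.000612.

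The 4 genes of deoxynucleotide supply had a median of -1.16. Tyms, thymidylate synthase, had 7.07, 7.21 and 7.54 in E2 uteri, against 8.84, 8.71 and 8.28 in oil uteri, and fell by 1.34 (SE 0.14). Rrm2, the small subunit of ribonucleotide reductase, had 6.53, 6.61 and 7.09 in E2 uteri, against 8.33, 8.19 and 7.26 in oil uteri, and fell by 1.18 (SE 0.24). Oil array 3 lay 1.00 below the mean of the other oil uteri for Rrm2, the widest such distance among the members, and close to the highest E2 array. The Rrm2 change was -1.52 without both oil arrays numbered 3. Rrm1, the large subunit, had 8.26, 8.31 and 8.55 in E2 uteri, against 9.61, 9.81 and 9.13 in oil uteri, and fell by 1.14 (SE 0.17). Tk1, the thymidine kinase of the salvage route, had 6.73, 6.68 and 6.63 in E2 uteri, against 7.49, 7.64 and 7.18 in oil uteri, and fell by 0.76 (SE 0.11). A second Tk1 probe set had means of 5.99 in E2 uteri and 6.91 in oil uteri, so both were lower with E2. A match of either Tk1 probe set to a near-identical copy of the gene was not tested, so its values are uncertain. Adjusted p-values ran from 3.57e-05 to 0.00326.

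Both E cyclins, the partners of CDK2 at S phase entry, fell. Ccne2 had 5.35, 5.37 and 5.84 in E2 uteri, against 7.14, 7.26 and 6.77 in oil uteri, and fell by 1.54 (SE 0.17), adjusted p = 5.98e-05. Ccne1 had 6.43, 6.38 and 6.43 in E2 uteri, against 7.32, 7.43 and 7.18 in oil uteri, and fell by 0.89 (SE 0.08), adjusted p = 1.23e-05. Ccne2 thus had the second largest change of all 42 members. Of the chromatin genes, Uhrf1, which brings the maintenance methyltransferase to newly copied DNA, had 6.24, 6.46 and 6.28 in E2 uteri, against 7.52, 7.28 and 7.0 in oil uteri, and fell by 0.94 (SE 0.14). Chaf1b, a subunit of the histone-depositing complex CAF-1, had 7.03, 7.14 and 7.05 in E2 uteri, against 7.73, 8.11 and 7.41 in oil uteri, and fell by 0.67 (SE 0.17). The Chaf1b call ended without oil uterus array 2, its highest array, with changes between -0.84 and -0.49 over all arrays left out. Chaf1a, the large CAF-1 subunit, had 6.54, 6.63 and 6.44 in E2 uteri, against 7.09, 7.01 and 6.88 in oil uteri, and fell by 0.45 (SE 0.09). Adjusted p-values of the 3 chromatin genes ran from 0.000335 to 0.0132.

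Since the members moved together, their promoters were read for E2F letters. Windows of 300 bases, 250 before to 50 after a transcript start, were available from RefSeq (GRCm38.p6) for 35 members. The 7-base E2F words TTCCCGC, the word TTGGCGC, the word TTCGCGC and the word TTGCCGC were searched on both strands, and matches may overlap. At least 1 word was present for 22 of the 35 members (62.9%), against 14.7% of all 15614 genes with a window. The stricter words, with 1 further T in front, were present for 14 members (40.0%), against 3.48%. Windows of 4 members whose genes fell at least 2-fold are shown because each holds 3 or more E2F words, in capitals, and that of Tyms because it fell as far and holds none. The window of Mcm2, which fell by 1.10, also holds none and is not shown.
Mcm5 chr8:75109259-75109558, plus strand: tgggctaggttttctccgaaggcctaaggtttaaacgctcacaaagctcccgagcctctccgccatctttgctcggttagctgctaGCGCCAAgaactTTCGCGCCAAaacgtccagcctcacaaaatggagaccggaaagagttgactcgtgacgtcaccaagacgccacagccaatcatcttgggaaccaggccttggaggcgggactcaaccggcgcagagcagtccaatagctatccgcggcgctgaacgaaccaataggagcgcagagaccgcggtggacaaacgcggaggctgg
Mcm3 chr1:20820263-20820562, minus strand: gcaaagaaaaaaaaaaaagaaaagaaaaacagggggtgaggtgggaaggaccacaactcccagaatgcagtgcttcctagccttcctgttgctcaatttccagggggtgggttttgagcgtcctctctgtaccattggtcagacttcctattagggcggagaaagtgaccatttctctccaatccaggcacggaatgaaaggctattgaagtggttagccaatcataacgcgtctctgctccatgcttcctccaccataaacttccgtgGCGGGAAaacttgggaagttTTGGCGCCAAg
Mcm6 chr1:128359656-128359955, minus strand: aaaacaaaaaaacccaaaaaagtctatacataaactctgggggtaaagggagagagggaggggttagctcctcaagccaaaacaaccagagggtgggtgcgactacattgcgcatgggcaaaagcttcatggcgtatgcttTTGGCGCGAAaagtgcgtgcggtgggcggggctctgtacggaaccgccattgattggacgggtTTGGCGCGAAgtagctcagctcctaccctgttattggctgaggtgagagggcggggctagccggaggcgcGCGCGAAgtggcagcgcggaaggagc
Pola1 chrX:93632106-93632405, minus strand: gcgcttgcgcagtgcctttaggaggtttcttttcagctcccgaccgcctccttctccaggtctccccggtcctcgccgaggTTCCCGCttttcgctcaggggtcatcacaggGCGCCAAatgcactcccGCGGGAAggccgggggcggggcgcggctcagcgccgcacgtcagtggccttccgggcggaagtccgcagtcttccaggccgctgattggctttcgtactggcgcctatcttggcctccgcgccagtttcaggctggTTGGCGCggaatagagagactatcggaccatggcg
Tyms chr5:30073576-30073875, minus strand: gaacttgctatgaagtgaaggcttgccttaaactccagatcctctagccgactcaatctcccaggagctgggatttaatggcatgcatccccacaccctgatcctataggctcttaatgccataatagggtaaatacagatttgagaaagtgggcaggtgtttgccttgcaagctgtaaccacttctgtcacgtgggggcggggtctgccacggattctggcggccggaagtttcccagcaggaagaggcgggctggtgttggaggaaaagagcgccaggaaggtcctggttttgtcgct
Counting the transcript start as the first base, with no base 0, Mcm5 had an overlapping pair of words at -152 and -149. In Mcm3 the 3 words began at 20, 40 and 43, and those at 40 and 43 overlapped. In Mcm6 overlapping pairs began at -109 and -106 and at -46 and -43.

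**Figure D3:**
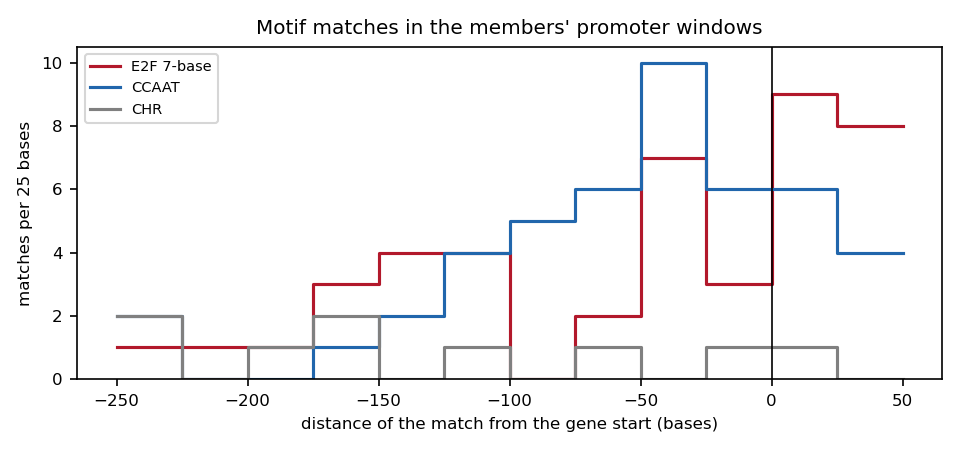
Number of motif matches per 25 bases across the promoter windows of the replication genes, by distance from the transcript start. E2F words were most frequent in the 25 bases after the start, with 9 matches, and CCAAT in the bin from 50 to 25 bases before it, with 10.

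CCAAT, a box common in cell cycle promoters, was present for 62.9% of the members, against 41.7% of all genes with a window. The CHR words TTTGAA and TTCGAA, which mark many mitotic promoters, were present for 20.0% of the members, against 19.0% of all genes. The mitosis genes had CHR words in 81.2% and 7-base E2F words in 12.5% of 16 genes with a window. The estrogen response element, GGTCA and TGACC with 3 bases between, was found for 0 of the 35 members and for 6 of all genes. A match is a string of letters and not a tested site, and a missing word says only that these letters are not in the window. The size of the uterine change was nearly the same with an E2F word (median -0.82, 22 genes) as without (median -0.78, 13 genes).

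In the oviduct, no member passed the test in either direction, where the background was 0.291% of all genes called (58 genes). By limma 2 members had an unadjusted p under 0.05, a smaller share than over all genes (2094 of 19938). They were Pcna, with a change of -0.27 (SE 0.09) and adjusted p = 0.287, and Gins3, with -0.21 (SE 0.08) and adjusted p = 0.38. The median change of the 42 was -0.09 and single genes ranged from -0.27 for Pcna to 0.25 for Rrm2. The 95% intervals of these changes lay between -0.51 and 0.78. For 41 members the whole oviductal interval lay above the estimated uterine change of the same gene, and Rfc2 was the exception. That count leaves out the error of the uterine change, which the direct test of the difference below includes. Again no member was called without both oil arrays numbered 3, where 0.607% of all genes were, and the median was then -0.05.

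The arrays of 7 members did not overlap in the oviduct, all lower with E2, where 9.07% of all genes showed that separation. Pcna had 9.06, 8.96 and 9.10 in E2 oviducts, against 9.29, 9.20 and 9.43 in oil oviducts. Gins3 had 6.08, 6.17 and 6.17 in E2 oviducts, against 6.35, 6.21 and 6.49 in oil oviducts. Rfc2 had 6.99, 6.83 and 6.93 in E2 oviducts, against 7.02, 7.05 and 7.45 in oil oviducts, with oil array 3 well above the other oil arrays. The other 4 of them differed by less. Pole2 had 6.14, 6.11 and 6.09 in E2 oviducts, against 6.32, 6.24 and 6.28 in oil oviducts. Mcm4 had 7.17, 7.30 and 7.30 in E2 oviducts, against 7.43, 7.34 and 7.50 in oil oviducts. Tyms had 7.22, 7.35 and 7.29 in E2 oviducts, against 7.46, 7.39 and 7.44 in oil oviducts. Prim1 had 6.67, 6.73 and 6.84 in E2 oviducts, against 6.95, 6.93 and 6.85 in oil oviducts. The nearest E2 and oil arrays almost met in Prim1, Rfc2, Gins3, Mcm4 and Tyms. None of these differences passed the test over all genes.

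**Figure D4:**
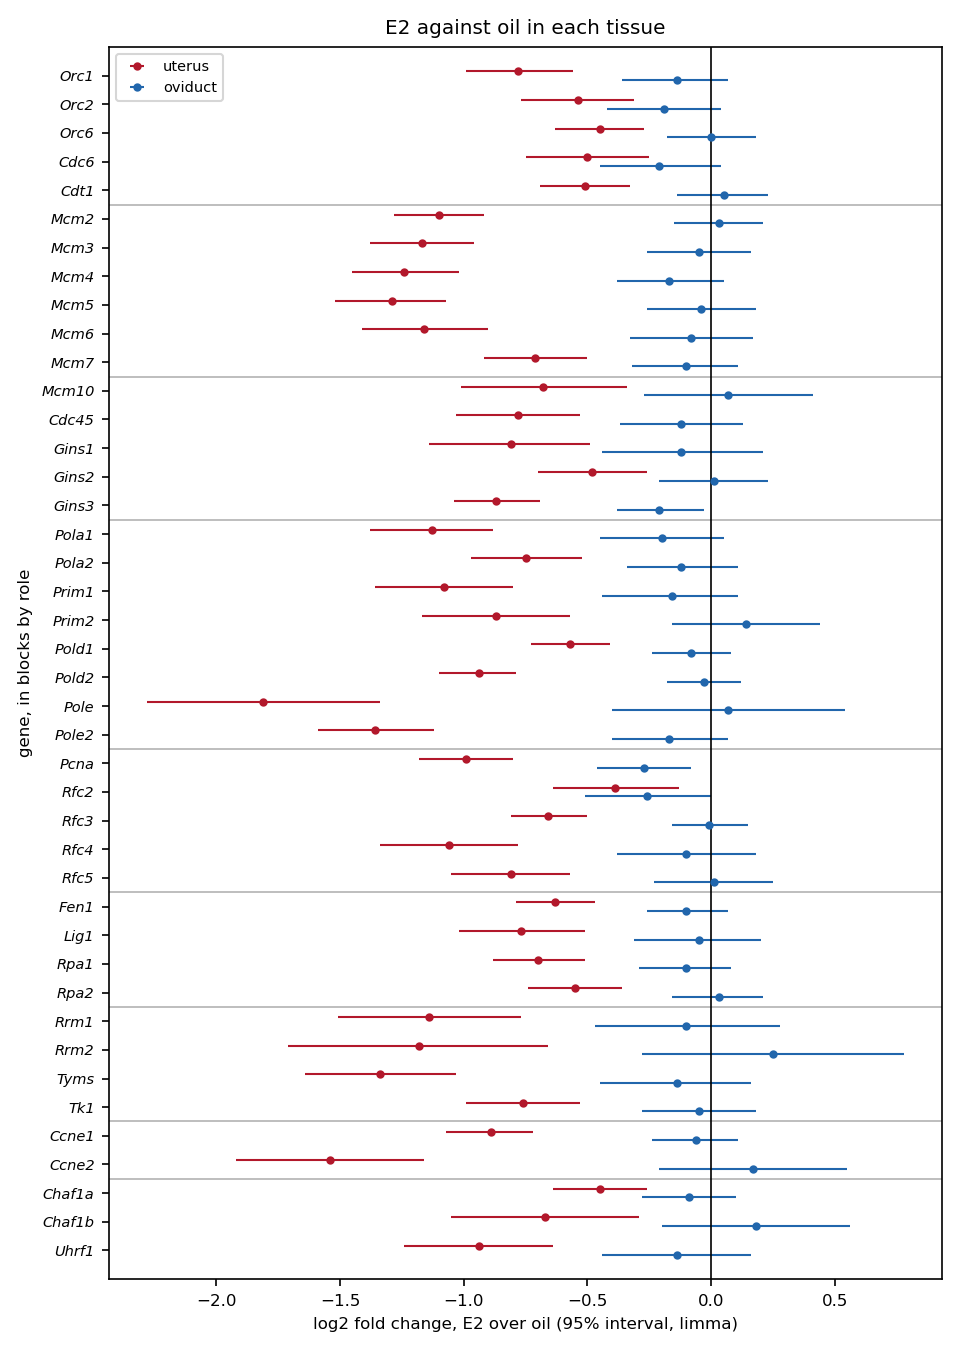
Log2 fold change of each replication gene, E2 over oil, in uterus and in oviduct, with 95% intervals from limma (3 arrays a group). All 42 uterine points lie below 0, between -1.81 and -0.39, while the oviductal points lie between -0.27 and 0.25.

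The difference between the tissues was tested directly as the E2 effect in uterus minus that in oviduct. It was negative and past the threshold for 37 of the 42 members and positive for none, where 5.77% of all genes were lower and 5.71% higher. The median difference was -0.74. It was largest for Pole at -1.87 (SE 0.30), Ccne2 at -1.71 (SE 0.24) and Rrm2 at -1.43 (SE 0.34), with adjusted p-values of 0.00224, 0.000991 and 0.0185. In the oviduct these genes did not pass the test. Pole had 5.72, 5.44 and 5.62 in E2 oviducts, against 5.38, 5.46 and 5.74 in oil oviducts. Ccne2 had 5.10, 5.0 and 5.08 in E2 oviducts, against 4.94, 4.57 and 5.16 in oil oviducts. Rrm2 had 6.46, 6.16 and 6.50 in E2 oviducts, against 6.03, 6.10 and 6.24 in oil oviducts, and the groups overlapped in all 3 genes. Among the MCM genes the difference ran from -1.25 for Mcm5 to -0.61 for Mcm7, and all 6 passed. The 5 members that did not pass were Gins1 at -0.70 (SE 0.21), Orc2 at -0.36 (SE 0.15), Chaf1a at -0.36 (SE 0.12), Cdc6 at -0.30 (SE 0.16) and Rfc2 at -0.13 (SE 0.17). Their adjusted p-values were 0.052, 0.17, 0.0831, 0.307 and 0.725. The count was 38, Chaf1a being added, without both oil arrays numbered 3, with a median of -0.91. In that fit 14.1% of all genes were called in either direction.

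Some of these calls changed with the arrays or the settings used. Leaving out 1 array at a time, the Chaf1b call ended without any array other than oil uterus 3, oil oviduct 3 or E2 oviduct 2. The Gins2 call ended without any array other than E2 uterus 1, oil uterus 3 or oil oviduct 3. The Mcm10 call ended without any array other than oil uterus 3, E2 oviduct 2 or oil oviduct 2. The call for Orc6 ended without E2 uterus 1 or 2, oil uterus 1 or 2, any E2 oviduct array or oil oviduct 2. For Cdc45 it ended without E2 uterus 3, oil uterus 1 or 2, E2 oviduct 1 or 3, or oil oviduct 1, and for Rrm2 and Uhrf1 without E2 uterus 1 or E2 oviduct 3. The differences stayed negative throughout, between -1.03 and -0.68 for Chaf1b, -0.56 and -0.39 for Gins2, -0.91 and -0.64 for Mcm10, -0.51 and -0.38 for Orc6, -0.78 and -0.59 for Cdc45, -1.77 and -1.23 for Rrm2, and -0.93 and -0.67 for Uhrf1. Gins1 passed without E2 uterus array 3, at -0.87, with a trend and robust variance, at -0.70, and with array weights, at -0.99. For the other 30 called members the call held in each alternative that tested them, 19 or 20 for a gene.

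Uterus and oviduct were also compared within each injection. In oil mice, 41 of the 42 members were higher in uterus than in oviduct, with a median of 0.93, where the background was 21.5% of all genes higher and 17.3% lower. At least 2-fold differences were found for 17, against 2.76% of all genes. Pole differed by 2.37 (SE 0.21), Ccne2 by 2.17 (SE 0.17), Rrm2 by 1.81 (SE 0.24) and Mcm5 by 1.66 (SE 0.10). Mcm5 had 8.29, 8.42 and 8.08 in oil uteri, against 6.57, 6.66 and 6.59 in oil oviducts. Its arrays did not overlap, and neither did those of the other 40 members called, where the background was 26.4%. Rfc2 differed by 0.09 (SE 0.12) and overlapped between the tissues. The calls with the highest adjusted p were Gins2 (0.0484) and Orc2 (0.0333). The Gins2 call ended without any array other than E2 uterus 1 or 3, oil uterus 3 or oil oviduct 3, with differences between 0.22 and 0.35. The Orc2 call ended without oil uterus array 2 or 3 or oil oviduct array 1 or 2, with differences between 0.25 and 0.37. Leaving out both oil arrays numbered 3, 40 members were higher, with a median of 1.03, where 36.7% of all genes were called in either direction.

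In E2 mice the tissues lay much closer. The median difference was 0.17, with 10 members higher and 1 lower in uterus, where 18.9% of all genes were higher and 15.2% lower. Array weights gave 19 members higher and 3 lower, a share near that of all genes called with those weights. The filter on low values left 24 members, 5 higher and 2 lower, with a median of 0.02, and the share of all genes called there is not given. In the main fit 10 members were higher, listed here by size. The higher ones were Chaf1b at 0.58 (SE 0.17), Mcm6 at 0.50 (SE 0.11), Mcm7 at 0.50 (SE 0.10), Pola1 at 0.47 (SE 0.11), Cdc6 at 0.45 (SE 0.11), Pola2 at 0.44 (SE 0.10), Mcm3 at 0.41 (SE 0.09), Mcm5 at 0.40 (SE 0.10), Ccne1 at 0.39 (SE 0.08) and Gins3 at 0.33 (SE 0.08). As a share of the members these higher calls were near that of all genes. Of the 6 MCM ring genes 4 were called higher, and differences in the ring ran from -0.14 to 0.50. No gene of the clamp and its loader, strand protection and joining, or deoxynucleotide supply was called. Mcm6 had 7.18, 7.45 and 7.60 in E2 uteri, against 7.01, 6.83 and 6.89 in E2 oviducts. Pold2 was lower, with 7.77, 7.84 and 7.85 in E2 uteri, against 8.26, 8.12 and 8.26 in E2 oviducts, a difference of -0.39 (SE 0.07) and adjusted p = 0.000918. In oil mice Pold2 was instead higher in uterus, by 0.52. The arrays did not overlap for 20 members higher in uterus and 3 lower, where the background was 28.7% and 21.1%. Without both oil arrays numbered 3, 13 members were higher and 1 lower, where 39.4% of all genes were called. Pole, Ccne2 and Uhrf1 were added. The Chaf1b call ended without E2 uterus array 2 or 3 or E2 oviduct array 2, with differences between 0.47 and 0.63. Some further members passed with an array left out. Without E2 uterus array 1 these were Mcm2 (0.25) and Pole2 (0.25), without E2 uterus array 3 Rfc3 (-0.23), and without E2 oviduct array 1 Cdt1 (0.25). Oil arrays enter through the shared estimate of spread: Orc1 passed without oil oviduct array 1 (0.24), Pole without oil uterus array 2 or 3 (0.50 and 0.50), and Ccne2 without oil uterus array 3 or oil oviduct array 2 or 3 (0.46 each).

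**Figure D5:**
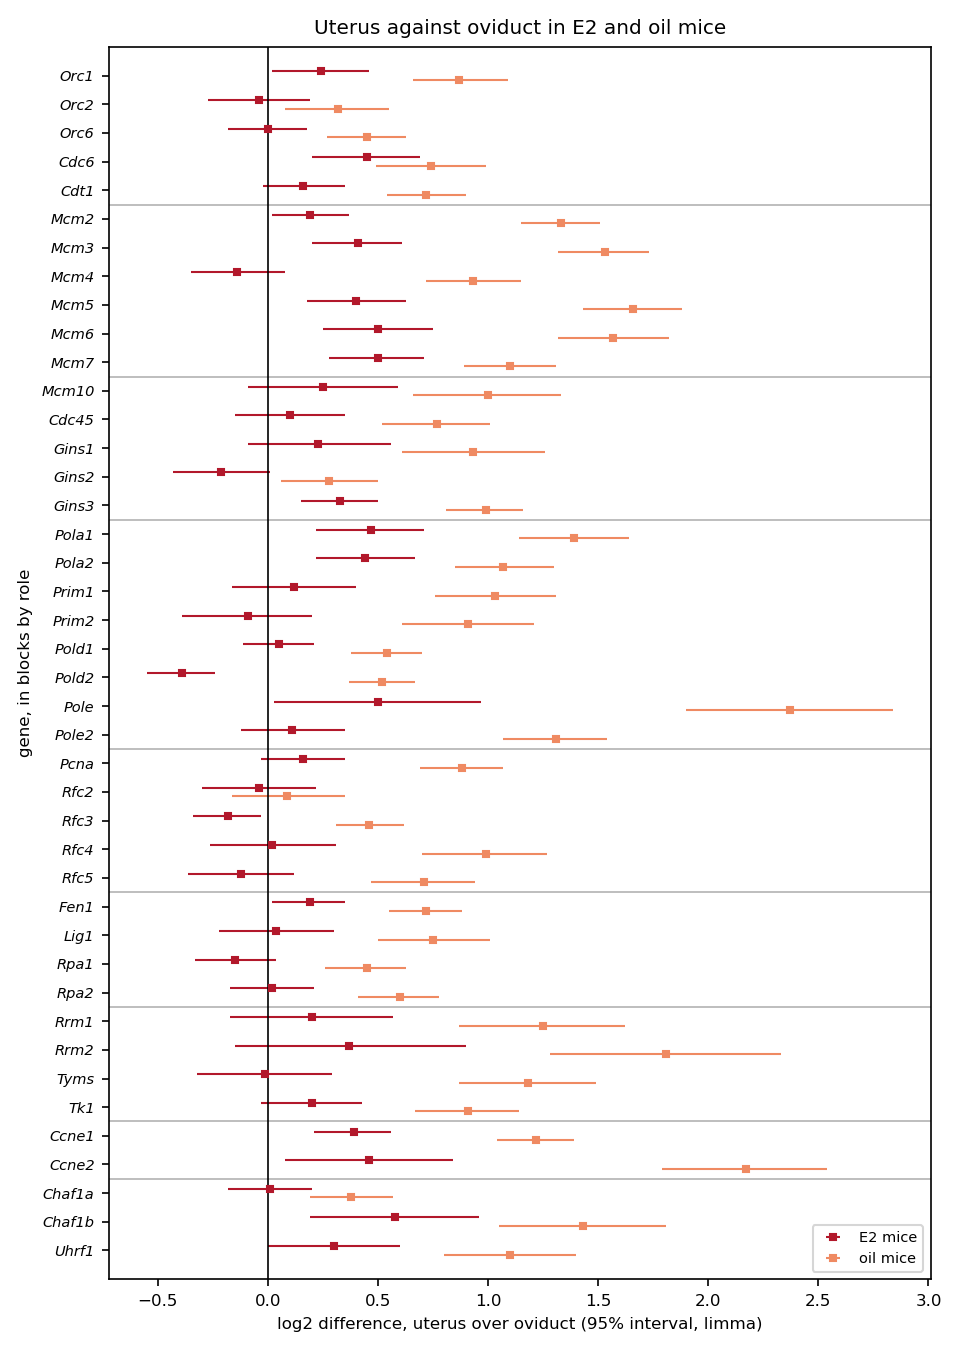
Log2 difference of each replication gene, uterus over oviduct, in E2 mice and in oil mice, with 95% intervals from limma (3 arrays a group). In oil mice the points reach 2.37 for Pole, and in E2 mice they lie between -0.39 and 0.58.

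A further 40 measured genes of replication and S phase, outside the 42, gave a related picture. In the uterus 30 fell, 2 rose and 8 did not pass, with a median of -0.54, where 14.3% of all genes fell. The falls were led by Ccna2, the S phase and mitotic cyclin A2, at -1.68 (SE 0.32, adjusted p = 0.00224), the chromatin remodeller gene Hells at -1.47 (SE 0.17, adjusted p = 6.92e-05), the PCNA partner gene Pclaf at -1.26 (SE 0.22) and the fork protection gene Tipin at -1.22 (SE 0.12). The 2 that rose were Samhd1, which encodes an enzyme that breaks down deoxynucleotides, at 0.59 (SE 0.13, adjusted p = 0.0053), and Pold4, a small polymerase delta subunit, at 0.41 (SE 0.08, adjusted p = 0.00259). Samhd1 thus moved against the 4 supply genes above. None of the 40 was called in the oviduct, with a median of -0.08. In the test of the difference between tissues 16 were lower, where 5.77% of all genes were. Without both oil arrays numbered 3, 33 fell and 2 rose in the uterus, and 23 were lower and 1 higher in the difference between tissues. In that fit 28% of all genes were called in the uterus and 14.1% in the difference.

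Of 13 E2F and pocket protein genes, 8 fell in the uterus and none rose, where 14.3% of all genes fell. E2f8 changed by -1.68 (SE 0.20, adjusted p = 8.08e-05) and E2f7 by -0.87 (SE 0.25, adjusted p = 0.0221), both encoding repressors of E2F targets. The activator genes E2f1 and E2f3 fell by amounts similar to E2f7 and smaller than E2f8, at -0.85 (SE 0.10, adjusted p = 7.83e-05) and -0.83 (SE 0.10, adjusted p = 0.000127). Rb1, which encodes the pocket protein that holds back E2F, did not pass, at 0.13 (SE 0.08). None of the 13 was called in the oviduct. Again 8 fell in the uterus without both oil arrays numbered 3, where 28% of all genes were called in either direction.

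Mitosis genes fell with the members in the uterus, but a smaller share passed the difference between tissues in the main fit. In the uterus 16 of 19 fell, with a median of -1.26, where 14.3% of all genes fell. The largest falls were in Bub1 at -1.87 (SE 0.40), Top2a at -1.75 (SE 0.30), Cdk1 at -1.57 (SE 0.40) and Kif11 at -1.57 (SE 0.28). All 19 lay below the other oil arrays on oil uterus array 3, with a median of -1.02. Without both oil arrays numbered 3 all 19 fell, with a median of -1.59, where 28% of all genes were called. In the main fit none of the 19 was called in the oviduct, where their median was 0.03. In the difference between tissues 7 of 19 were lower, where 5.77% of all genes were. Without both oil arrays numbered 3 it was 18, where 14.1% of all genes were called. In E2 mice their median difference, uterus over oviduct, was 0.66, against 0.17 for the members. There 5 of 19 were called higher, where 18.9% of all genes were. Without both oil arrays numbered 3 it was 18, where 39.4% of all genes were called.

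Some markers of cell types also differed in the uterus, where 12.4% of all genes were higher with E2 and 14.3% lower. Epithelial markers were higher with E2 for 11 of 12, led by Elf3 at 2.58 (SE 0.15) and Krt7 at 2.13 (SE 0.16), and their mean centred level was 0.21 to 0.37 in E2 uteri, against -0.89 to -0.64 in oil uteri. Stromal markers were lower for 5 of 11, led by Hoxa11 at -0.92 (SE 0.10), with 0.32 to 0.40 in E2 uteri, against 0.62 to 0.65 in oil uteri. Endothelial markers were lower for 9 of 9, led by Cdh5 at -0.95 (SE 0.11), with 0.06 to 0.15 in E2 uteri, against 0.59 to 0.75 in oil uteri. Leukocyte markers were higher for 4 of 11, led by Ly6g at 3.03 (SE 0.20), with 0.54 to 0.65 in E2 uteri, against -0.21 to 0.00 in oil uteri. Smooth muscle markers were higher for 3 of 9, with 0.31 to 0.33 in E2 uteri, against -0.26 to 0.29 in oil uteri. Without both oil arrays numbered 3 the counts were 10 epithelial, 5 leukocyte and 8 smooth muscle markers higher, and 6 stromal and 9 endothelial markers lower. In that fit 28% of all genes were called. No marker was listed at 0 on any array, but no probe set at all was, so the lack of 0 values does not show detection. The part of these shifts in the replication result was not tested.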

How the data were processed

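The deposited values are linear intensities per Affymetrix probe set, made by the authors with RMA, per the submitters' processing notes; its version is not given in the sources used here. They were converted to log2, with no further normalization. Of 35556 probe sets, 21789 had 1 gene symbol and gave 19938 genes. A gene with several took the brightest on average. Array medians were 89.5 to 92.9 intensity units, and the number of arrays limits precision. Levels of different probe sets were not compared.

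The 12 arrays shared 1 model of 4 group means (limma 3.58.1, R 4.3.3). Tests were two-sided, p-values were adjusted by Benjamini-Hochberg across the 19938 genes, and an adjusted p under 0.05 was called. With 3 arrays against 3, an exact permutation test cannot go below p = 0.1. The members and lists were chosen with earlier results of these data known. All members may be named, with array values in the uterus. Of each other list, up to 4 genes a direction by size of change are named. A few genes of the other lists were not analysed here. Same-numbered arrays of different groups had correlations of deviations between -0.20 and 0.26. For uterus and oviduct arrays of the same injection they ran from 0 to 0.26, and from -0.28 to 0.26 where the numbers differed. With 3 arrays a group such values cannot settle pairing. The labels do not say whether the uterus and oviduct arrays came from the same mice. Arrays were treated as independent in the main fit, and the block was an alternative. The 21 alternatives covered normalization, filter, probe set rule, variance model, block, array weights, samples in the fit, and arrays left out. The fit was tested on simulated data. Positions and promoter sequences are from RefSeq, GRCm38.p6.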

Additional observations from a re-analysis of the deposited data

Results flagged for a closer look

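The E2 effect differed between uterus and oviduct by the interaction test of limma for 37 of the 42 members. Over all genes 5.77% were lower and 5.71% higher in that test. The log2 difference of the effects (uterus minus oviduct) was negative for each of the 37 members. Of these 37 calls, 7 ended in some alternative. In origin licensing it was -0.63 for Orc1, -0.45 for Orc6 and -0.56 for Cdt1. In the MCM ring it was -1.13 for Mcm2, -1.12 for Mcm3, -1.07 for Mcm4, -1.25 for Mcm5, -1.08 for Mcm6 and -0.61 for Mcm7. In helicase activation it was -0.75 for Mcm10, -0.66 for Cdc45, -0.49 for Gins2 and -0.66 for Gins3. In the polymerases and primase it was -0.93 for Pola1, -0.63 for Pola2, -0.91 for Prim1, -1.01 for Prim2, -0.49 for Pold1, -0.91 for Pold2, -1.87 for Pole and -1.19 for Pole2. In the clamp and its loader it was -0.72 for Pcna, -0.65 for Rfc3, -0.96 for Rfc4 and -0.82 for Rfc5. In strand protection and joining it was -0.53 for Fen1, -0.71 for Lig1, -0.59 for Rpa1 and -0.57 for Rpa2. In deoxynucleotide supply it was -1.05 for Rrm1, -1.43 for Rrm2, -1.19 for Tyms and -0.71 for Tk1. In the E cyclins it was -0.83 for Ccne1 and -1.71 for Ccne2. In chromatin assembly it was -0.86 for Chaf1b and -0.80 for Uhrf1. What lies behind these differences was not tested.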

How the results depend on the processing

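The median change of the members kept its sign in each of the 5 comparisons under each alternative run there (21, or 20 for the difference between tissues), as did each called member. Uncalled members changed sign in some alternative for 15 genes in oviduct and 9 between tissues in E2 mice. No member was called in the oviduct under any of them. With only genes whose mean reached that of the median gene, 24 members remained testable: 24 were lower in the uterus and 22 in the difference between tissues, 23 were higher in uterus in oil mice, and in E2 mice 5 were higher and 2 lower, with a median of 0.02. The share of all genes called in that fit is not given here, so these counts have no background beside them. Array weights gave 8214 genes called in uterus, 264 in oviduct, 4531 in the difference between tissues (median of members -0.90) and 10554 between tissues in E2 mice, with 19 members higher and 3 lower. Quantile normalization gave 2 members lower in E2 mice. With the oviduct arrays alone, 10 genes were called in oviduct. Without both oil arrays numbered 3 the oviduct had 121 genes called, and the medians of members were -0.90 in uterus, -0.91 for the difference between tissues and 1.03 between tissues in oil mice. Leaving out 1 array at a time, the uterine median ran from -0.90 to -0.78, the median difference between tissues from -0.87 to -0.68, the genes called in oviduct from 14 to 67, and the members lower in uterus of E2 mice from 1 to 2. The lowest oviduct counts came without an E2 oviduct array: 15, 15 and 14 without arrays 1, 2 and 3. Counts of 25 to 32 came without each of E2 uterus arrays 1, 2 and 3, oil uterus arrays 1 and 2, and oil oviduct arrays 1 and 2. Causes were not tested, beyond fewer genes in the filtered fit.

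With the replicate number as a fixed block, 42 members were lower in uterus, 0 were called in oviduct, 35 were lower in the difference between tissues, 10 were higher and 1 lower in E2 mice, and 40 were higher in oil mice. In the difference between tissues the fixed block ended the calls of Mcm10, Gins2 and Chaf1b and added Gins1. With the number as a random block, the difference between tissues had 38 members lower. The shares of all genes called in these block fits are not given here. The block is given for completeness, since the numbers were not shown to pair arrays. The 3 arrays a group and dim probe sets limit how small a change could be called.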

Other observations

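Genes that act before S phase did not share one direction in the uterus. Of 13 measured G1 cyclins, kinases, inhibitors and MYC genes, 4 fell and 3 rose with E2, with a median of -0.11. Over all genes 14.3% fell and 12.4% rose. Myc, a transcription factor of growth, changed by -1.55 (SE 0.08, adjusted p = 2.2e-07) and the D cyclin Ccnd2 by -0.98 (SE 0.15, adjusted p = 0.000417), while Cdk4 changed by -0.39 (SE 0.07) and Ccnd1 by -0.35 (SE 0.12). Mycn, a close relative of Myc, changed the other way, by 2.38 (SE 0.11, adjusted p = 1.04e-07). Cdk6, the D cyclin kinase, changed by 0.44 (SE 0.09) and Cdkn1b, an inhibitor of CDK2, by 0.34 (SE 0.07). Without both oil arrays numbered 3, 5 of these genes fell and 3 rose, where 28% of all genes were called in either direction.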
